A study of Mus musculus with 4 samples.

Results

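The p53 target genes examined here are 10 protein-coding genes chosen by name, *Cdkn1a*, *Mdm2*, *Ccng1*, *Bax*, *Bbc3*, *Phlda3*, *Eda2r*, *Zmat3*, *Trp53inp1* and *Aen*, out of 23420 gene symbols counted by RNA-seq in mouse prefrontal cortex (PFC). All 10 passed the filter on low counts. The control group held 2 samples from C57BL6/J mice injected with GFP-AAV9, which the study's methods describe as scrambled shRNA AAV. The *Ash1L* shRNA group held 2 samples from C57BL6/J mice injected with shRNA_ASH1L-AAV9, in which a U6 promoter drives a short hairpin RNA against *Ash1l* in whichever cells the virus infects. The methods state that PFC punches with GFP fluorescence from 3 mice were pooled for each sample and that injection was at 5 weeks, whereas the series text gives 3 shRNA and 2 control mice aged 6 to 8 weeks. Each sample is bulk tissue, so a change in the number of cells of a type and a change in RNA per cell cannot be told apart.

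p53 (encoded by *Trp53*) is a transcription factor that is kept scarce by the ubiquitin ligase Mdm2 and is stabilized by DNA damage and other stresses. It binds paired half-sites in DNA and switches on genes for cell cycle arrest, for apoptosis and for its own feedback inhibition. In neurons, which do not divide, p53 is best known for its role in death after DNA damage, ischemia or excitotoxic injury. Several of its targets, *Cdkn1a* among them, also respond to other transcription factors.

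Promoter windows from RefSeq (GRCm38.p6, the assembly of mm10), running from 250 bases before to 50 bases after each start site, were held for 8 of the 10 genes, with 12 windows in all. *Zmat3* and *Trp53inp1* were not matched. The p53 half-site consensus, a 10-base motif that reads the same on both strands, was found in 6 of the 12 windows and in 5 genes, *Cdkn1a*, *Mdm2*, *Ccng1*, *Bax* and *Aen*. Of all 32851 promoter windows, 8.36% held a half-site. A pair of half-sites separated by at most 13 bases was present in 0.0731% of all windows, and the upstream *Cdkn1a* window was one of them. The other *Cdkn1a* window held no half-site, and both *Aen* windows held the same one. The bases before the start site are shown for 4 genes as the places where these letters lie, 5′ to 3′ on the strand of the gene, with each half-site in capitals.
*Cdkn1a* (chr17:29090729-29090975, + strand): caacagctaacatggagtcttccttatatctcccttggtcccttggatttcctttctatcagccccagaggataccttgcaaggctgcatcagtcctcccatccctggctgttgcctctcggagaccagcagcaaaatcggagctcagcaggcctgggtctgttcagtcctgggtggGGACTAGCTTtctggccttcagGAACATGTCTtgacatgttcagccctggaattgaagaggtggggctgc
*Mdm2* (chr10:117710759-117711008, - strand): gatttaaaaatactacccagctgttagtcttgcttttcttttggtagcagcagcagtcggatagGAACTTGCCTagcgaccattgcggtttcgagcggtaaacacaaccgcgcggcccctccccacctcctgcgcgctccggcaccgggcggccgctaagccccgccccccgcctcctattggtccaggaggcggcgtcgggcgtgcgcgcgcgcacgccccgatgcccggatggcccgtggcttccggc
*Ccng1* (chr11:40755312-40755536, - strand): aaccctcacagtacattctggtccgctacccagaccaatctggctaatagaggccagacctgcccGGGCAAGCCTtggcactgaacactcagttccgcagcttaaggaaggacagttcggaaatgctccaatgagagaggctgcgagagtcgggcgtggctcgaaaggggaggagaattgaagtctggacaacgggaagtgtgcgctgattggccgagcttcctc
*Bax* (chr7:45466899-45467148, - strand): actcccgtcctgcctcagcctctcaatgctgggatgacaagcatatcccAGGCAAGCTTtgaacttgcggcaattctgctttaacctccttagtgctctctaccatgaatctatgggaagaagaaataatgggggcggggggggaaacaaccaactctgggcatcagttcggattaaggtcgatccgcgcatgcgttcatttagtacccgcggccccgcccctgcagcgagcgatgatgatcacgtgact
A match of letters is a description and was not tested as a binding site. In the 4 windows shown, *Cdkn1a* had 2 half-sites and the other three genes had 1 each.

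Total counts ranged from 14251190 to 35764874 per sample and were lowest in control sample 1. Values below are CPM, in which each count is divided by the library size scaled with TMM factors. *Ash1l* was 245 and 290 CPM in control samples 1 and 2, and 216 and 138 CPM in *Ash1L* shRNA samples 1 and 2, so the lowest level of the targeted gene was in *Ash1L* shRNA sample 2, and its log2 fold change was -0.60. Genes were called UP or DOWN at an unadjusted P under 0.05 with at least a 1.2-fold change, in edgeR's quasi-likelihood test over 16232 genes. These calls do not allow for the number of genes tested, and 1 gene (0.00616% of those tested), which is not a p53 target examined here, passed an adjusted p of 0.05. With 2 samples a group, the smallest p of a two-sided exact permutation test is 0.333. Markers of excitatory neurons, interneurons, astrocytes, oligodendrocytes, microglia and endothelial cells were above 0 in every sample, as were those of the other cell types listed.

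Of the 10 p53 target genes, 3 were UP (*Cdkn1a*, *Mdm2* and *Aen*), 1 was DOWN (*Zmat3*) and 6 were not called. Over all genes tested, 8.61% were UP and 8.28% were DOWN. The median log2 fold change of the 10 genes was 0.53, against 0.00 over all genes, and 9 of the 10 had a fold change above 0. Both *Ash1L* shRNA samples lay above both control samples for 6 of the genes, against 26.5% of all genes, and below both for *Zmat3*, against 26.8% of all genes. By edgeR's quasi-likelihood test 4 of the 10 passed an unadjusted P of 0.05, as did 2746 of the 16232 genes tested. By the same test 0 of the 10 passed an adjusted p of 0.05, where the smallest was 0.253 and the background 0.00616%. *Cdkn1a* had an adjusted p of 0.0396 with DESeq2 and of 0.000843 with edgeR's likelihood ratio test, and it was the 1 gene of the 10 under 0.05 in each of those tests, where 2.59% and 2.95% of all genes were. Without *Ash1L* shRNA sample 1, 7 of the 10 had an adjusted p under 0.05 by edgeR's quasi-likelihood test, as did 15.2% of all genes.

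**Figure D1:**
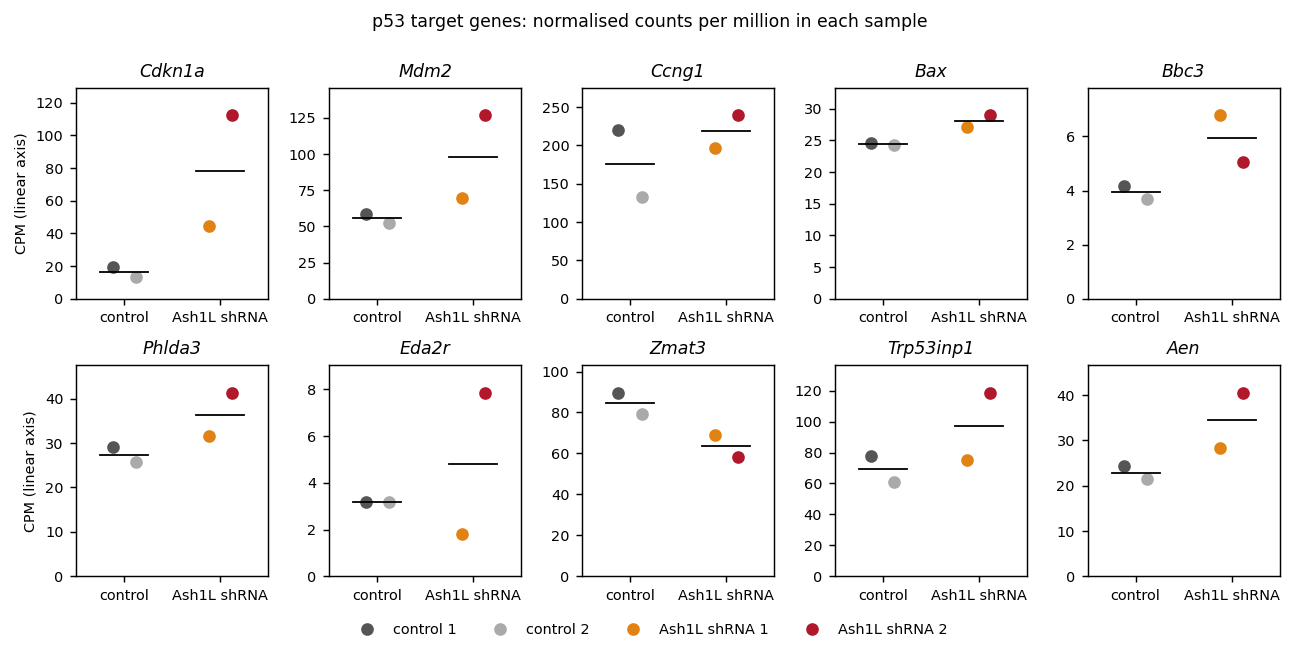
CPM (counts scaled with TMM) of the 10 p53 target genes, 1 panel per gene with its own linear axis from 0. Each point is 1 sample and each line a group mean (n = 2). *Cdkn1a* rose from at most 19.3 CPM in control samples to 44.3 and 112 CPM in *Ash1L* shRNA samples, while *Zmat3* was lower in both *Ash1L* shRNA samples.

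*Cdkn1a* encodes p21, the inhibitor of cyclin-dependent kinases through which p53 halts the cell cycle. Its counts were 272 and 473 in control samples 1 and 2 and 1214 and 2331 in *Ash1L* shRNA samples 1 and 2, although control sample 2 was the deepest library. After scaling, these were 19.3 and 13.5 CPM in control samples and 44.3 and 112 CPM in *Ash1L* shRNA samples. The groups did not overlap, and the second *Ash1L* shRNA sample was the highest. Against the control mean, the level was 2.71-fold in *Ash1L* shRNA sample 1 and 6.87-fold in sample 2. The fitted log2 fold change was 2.27 (standard error 0.50, unadjusted P = 0.00641 and adjusted p = 0.253 by edgeR's quasi-likelihood test). It stayed between 1.46 and 2.80 with any 1 sample left out. Without control sample 2 it was 2.02, and *Cdkn1a* was not called UP. Without *Ash1L* shRNA sample 2 it was 1.46, and *Cdkn1a* was UP. In the annotation of GENCODE vM21 (GRCm38), *Cdkn1a* (ENSMUSG00000023067) lies on chromosome 17 from 29090976 to 29100727, and 7.68% of its exonic length overlaps a transcript of unconfirmed coding status on the opposite strand. The strand setting of the counting is not given in the sources used here.

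*Mdm2* encodes the ubiquitin ligase that degrades p53 and is itself induced by p53, which closes a feedback loop. It was 58.8 and 52.3 CPM in control samples and 69.6 and 127 CPM in *Ash1L* shRNA samples. Again the groups did not overlap, but the difference in *Ash1L* shRNA sample 1 was small, at 1.25-fold of the control mean, against 2.28-fold in sample 2. The log2 fold change was 0.82 (standard error 0.28, adjusted p = 0.262 by edgeR's quasi-likelihood test), and it was 0.33 without *Ash1L* shRNA sample 2 and 1.19 without sample 1. *Mdm2* was not called UP with either control sample left out, at log2 fold changes of 0.92 without sample 1 and 0.73 without sample 2.

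*Ccng1* encodes cyclin G1, another p53 target in the feedback on Mdm2, and was the most abundant of the 10 genes. It was 220 and 133 CPM in control samples and 197 and 240 CPM in *Ash1L* shRNA samples. The control samples differed from each other more than the group means did, the groups overlapped, and the log2 fold change of 0.31 (standard error 0.25) was not called. Its value hung on the controls, with a log2 fold change of 0.73 (UP) without control sample 1 and -0.02 without control sample 2.

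Among the genes for cell death, *Bax* encodes the pore-forming protein of the mitochondrial pathway. It was 24.7 and 24.3 CPM in control samples and 27.1 and 29.0 CPM in *Ash1L* shRNA samples. Both *Ash1L* shRNA samples lay above both controls, but the log2 fold change of 0.19 (standard error 0.13) was not called, nor was it with any 1 sample left out. In the annotation of GENCODE vM21, 12.2% of the exonic length of *Bax* overlaps another protein-coding gene model on the same strand. The annotation used for counting is not given in the sources used here, so whether this overlap affected the counts was not tested.

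*Bbc3* encodes Puma, a BH3-only protein that frees Bax to act. It was low, with 59, 130, 186 and 105 counts in control samples 1 and 2 and *Ash1L* shRNA samples 1 and 2, or 4.18, 3.71, 6.79 and 5.07 CPM. Here the first *Ash1L* shRNA sample was the higher, unlike in *Cdkn1a* and *Mdm2*. Its exact Poisson 95% interval was 5.85 to 7.84 CPM, above those of both controls, whose upper ends were 5.39 and 4.40 CPM, while the interval of the second sample, 4.14 to 6.13 CPM, overlapped both. Such intervals cover counting error only. The log2 fold change was 0.60 (standard error 0.28) and was not called, and without *Ash1L* shRNA sample 2 it was 0.80 and UP.

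*Eda2r* encodes a receptor of the TNF receptor family that binds an ectodysplasin. It was 3.19 CPM in both control samples, 1.79 CPM in *Ash1L* shRNA sample 1 and 7.86 CPM in sample 2. The *Ash1L* shRNA samples thus lay on opposite sides of the controls, at 0.561-fold and 2.47-fold of the control mean. The Poisson interval of sample 1 was 1.32 to 2.37 CPM, which overlapped that of control sample 1 (2.33 to 4.27 CPM) and not that of control sample 2 (2.63 to 3.84 CPM), and that of sample 2 was 6.70 to 9.17 CPM, above both. The fitted log2 fold change of 0.58 had a standard error of 0.66, it was 1.30 (UP) without *Ash1L* shRNA sample 1 and -0.83 without sample 2.

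*Phlda3* encodes a PH-domain protein that restrains Akt signaling, and *Aen* encodes an exonuclease that takes part in apoptosis. *Aen* was 24.4 and 21.4 CPM in control samples and 28.4 and 40.6 CPM in *Ash1L* shRNA samples, and its log2 fold change came to 0.59 (standard error 0.20, adjusted p = 0.261 by edgeR's quasi-likelihood test). *Phlda3* was 29.0 and 25.7 CPM in control samples and 31.5 and 41.3 CPM in *Ash1L* shRNA samples, and its log2 fold change came to 0.41 (standard error 0.17) with an unadjusted P of 0.0514 in the same test. For both genes the groups did not overlap and *Ash1L* shRNA sample 1 stood close to the controls. *Aen* was no longer UP without control sample 1 (0.70), control sample 2 (0.49) or *Ash1L* shRNA sample 2 (0.32), and *Phlda3* was UP at 0.59 without *Ash1L* shRNA sample 1 and at 0.46 with scaling by library size alone.

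*Trp53inp1* encodes a p53-induced nuclear protein linked to autophagy and cell death. It was 77.9 and 60.8 CPM in control samples and 75.3 and 119 CPM in *Ash1L* shRNA samples. *Ash1L* shRNA sample 1 lay between the controls, and the log2 fold change of 0.49 (standard error 0.24) was not called. Without *Ash1L* shRNA sample 1 it was 0.78 and UP, and without sample 2 it was 0.13.

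*Zmat3* encodes a zinc finger protein that binds RNA and acts in p53-dependent growth control, and it went the other way. It was 89.7 and 79.5 CPM in control samples and 68.8 and 58.4 CPM in *Ash1L* shRNA samples. Both *Ash1L* shRNA samples lay below both controls, at 0.813-fold and 0.691-fold of the control mean. The log2 fold change was -0.41 (standard error 0.13, adjusted p = 0.260 by edgeR's quasi-likelihood test), and *Zmat3* was not DOWN without control sample 1 (-0.31) or without *Ash1L* shRNA sample 2 (-0.29).

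The *Ash1L* shRNA samples differed from each other over these genes. In sample 2, 9 of the 10 genes lay above both controls and *Zmat3* lay below, against 41.7% of all genes above and 41.7% below. In sample 1, 6 lay above both controls and 2, *Eda2r* and *Zmat3*, below both, against 36.6% of all genes above and 37.5% below. The median log2 difference of the 10 genes from the control mean, with 0.5 added to each CPM, was 0.18 in sample 1 and 0.68 in sample 2, and 8 of the 10 genes were higher in sample 2 than in sample 1, against 47.7% of all genes. The controls differed too, since 9 of the 10 genes were higher in control sample 1 than in control sample 2, against 49.7% of all genes.

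**Figure D2:**
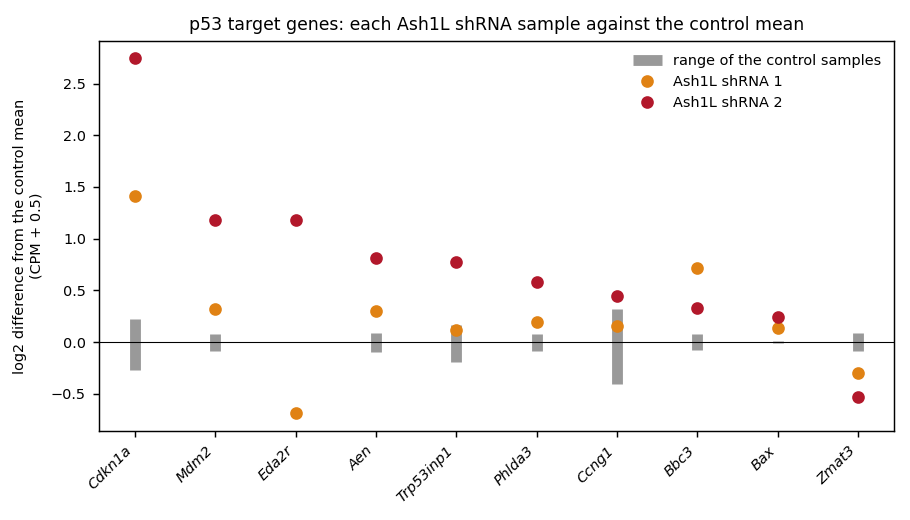
Log2 difference of each *Ash1L* shRNA sample from the control mean for the 10 genes, with 0.5 added to each CPM. Grey bars span the 2 control samples. *Cdkn1a* exceeded the control range by the most in both samples, at 1.41 in sample 1 and 2.74 in sample 2, and *Eda2r* lay at -0.69 and 1.18.

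The count of UP genes among the 10 moved with the samples kept. It was 2 without control sample 1, where 5.07% of all genes were UP, and 0 without control sample 2, where 2.57% were. It was 6 without *Ash1L* shRNA sample 1, where 14.4% of all genes were UP, and 3 (*Cdkn1a*, *Mdm2* and *Bbc3*) without *Ash1L* shRNA sample 2, where 6.25% were. The share of all genes called thus moved with the samples kept too. The median log2 fold change of the 10 genes stayed above 0 throughout, from 0.19 without *Ash1L* shRNA sample 2 to 0.69 without control sample 1.

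**Figure D3:**
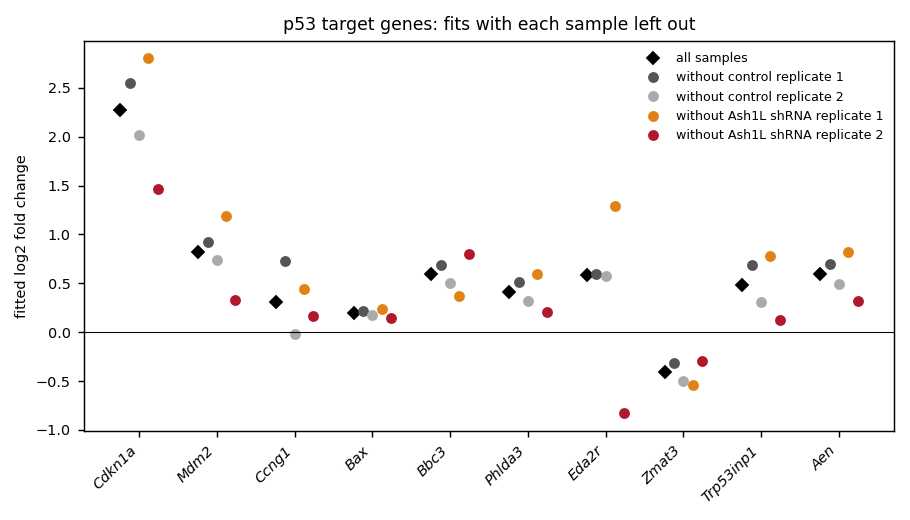
Fitted log2 fold change of each of the 10 genes with all samples (black diamonds) and with each sample left out in turn (circles). *Cdkn1a* stayed between 1.46 and 2.80, whereas *Eda2r* ranged from -0.83 to 1.30 and *Ccng1* from -0.02 to 0.73.

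Levels were compared between the genes as CPM per kilobase of annotated exon. The exon lengths are those of GENCODE vM21, which may differ from the annotation used for counting, so the order of the genes is approximate. In control samples the mean was highest for *Ccng1*, at 50.2 CPM per kilobase, followed by *Phlda3* at 17.6, *Bax* at 15.5, *Mdm2* at 10.9, *Trp53inp1* at 10.7, *Zmat3* at 7.40, *Cdkn1a* at 4.61, *Aen* at 3.95, *Bbc3* at 1.86 and *Eda2r* at 0.542. The control values of *Mdm2* and *Trp53inp1* overlapped, as did those of *Cdkn1a* and *Aen*. In *Ash1L* shRNA sample 2, *Cdkn1a* reached 31.7 CPM per kilobase, and of the 10 genes *Ccng1* alone was above it at 68.2. In *Ash1L* shRNA sample 1 it was 12.5 CPM per kilobase, between *Trp53inp1* at 11.6 and *Mdm2* at 13.7.

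*Trp53* itself (ENSMUSG00000059552, chromosome 11 from 69580359 to 69591873) was 10.7 and 11.0 CPM in control samples and 15.6 and 17.7 CPM in *Ash1L* shRNA samples. The groups did not overlap, each group was tight, and it was UP with a log2 fold change of 0.61 (standard error 0.17, adjusted p = 0.255 by edgeR's quasi-likelihood test). It was not UP without control sample 1 (0.61, unadjusted P = 0.0610 by the quasi-likelihood test of edgeR) or without control sample 2 (0.63, unadjusted P = 0.0581 by that edgeR test). In a list of 20 regulators of p53, 18 were tested (*Cdkn2a* and *Trp63* were too low), 2 were UP and 0 were DOWN. The shares of all genes were 8.61% UP and 8.28% DOWN, and the list median was 0.07. The other UP gene was *Rchy1*, which encodes the ubiquitin ligase Pirh2, with a log2 fold change of 0.41 (standard error 0.15). The log2 fold change of *Rchy1* was 0.51 without control sample 1 and 0.32 without control sample 2. It was 0.53 without *Ash1L* shRNA sample 1 and 0.29 without *Ash1L* shRNA sample 2. The count of called regulators moved with the sample left out, as did the count over all genes.

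In a list of 36 other p53 targets, all 36 were tested, 11 were UP and 0 were DOWN, and the list median was 0.28. Over all genes tested, 8.61% were UP and 8.28% were DOWN. The groups did not overlap for 17 genes of the list that were higher, against 26.5% of all genes, and 5 that were lower, against 26.8%. *Pmaip1* encodes Noxa, a BH3-only protein, and was 5.10 and 6.10 CPM in control samples and 14.8 and 18.8 CPM in *Ash1L* shRNA samples. Its log2 fold change was 1.57 (standard error 0.22), and it was UP with any 1 sample left out. *Gadd45a*, a stress and DNA damage gene, was 7.44 and 4.99 CPM in control samples and 13.5 and 24.4 CPM in *Ash1L* shRNA samples, and its log2 fold change came to 1.63 (standard error 0.35). It too was UP with any 1 sample left out.

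*Trp53cor1*, known as lincRNA-p21 and listed in the count tables as *Gm16197*, was 1.06 and 0.855 CPM in control samples and 2.74 and 5.02 CPM in *Ash1L* shRNA samples. These rested on 15 and 30 counts in the controls and on 75 and 104 after knockdown, and the fitted log2 fold change was 2.03 (standard error 0.44). It is annotated 11796 bases away from *Cdkn1a*, with 44.1% of its exonic length under another noncoding RNA on the opposite strand. *Gdf15*, a secreted stress factor, was scarce, with 4 and 9 counts in controls and 29 and 90 after knockdown, and its log2 fold change came to 3.30 (standard error 0.82). *Gdf15* was not UP without control sample 2, where its log2 fold change was 3.20, and was 1.98 without *Ash1L* shRNA sample 2.

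*Ckap2* (1.79) was UP with any 1 sample left out, whereas *Triap1* (0.51) and *Polh* (0.49) were UP only with *Ash1L* shRNA sample 1 as the sample left out. *Tnfrsf10b* (1.93) ranged from 0.94 without *Ash1L* shRNA sample 2 to 2.60 without control sample 1, and was not UP without *Ash1L* shRNA sample 2 or without control sample 2 (1.36). The other three UP genes, *Rrm2b* (0.36), *Apaf1* (0.60) and *Ephx1* (1.05), were outside the rule for named genes and were named after their values were seen. *Rrm2b* was not UP without control sample 2 (0.22) or *Ash1L* shRNA sample 1 (0.33), and *Apaf1* was not UP without control sample 1 (0.52), control sample 2 (0.70) or *Ash1L* shRNA sample 2 (0.22). *Ephx1* was not UP without control sample 2 (0.64), *Ash1L* shRNA sample 1 (1.40) or *Ash1L* shRNA sample 2 (0.61), and was 1.58 without control sample 1. Over the list, 8 genes were UP without control sample 1, 5 without control sample 2, 15 without *Ash1L* shRNA sample 1 and 6 without *Ash1L* shRNA sample 2, where the shares of all genes UP were 5.07%, 2.57%, 14.4% and 6.25%. The adjusted p of *Pmaip1* was 0.234 in edgeR's quasi-likelihood test and 2.07e-05 with DESeq2. *Btg2*, an antiproliferative gene named after its values were seen, was 34.8 and 31.9 CPM in control samples, 31.7 CPM in *Ash1L* shRNA sample 1 and 284 CPM in sample 2, and it was not called.

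**Figure D4:**
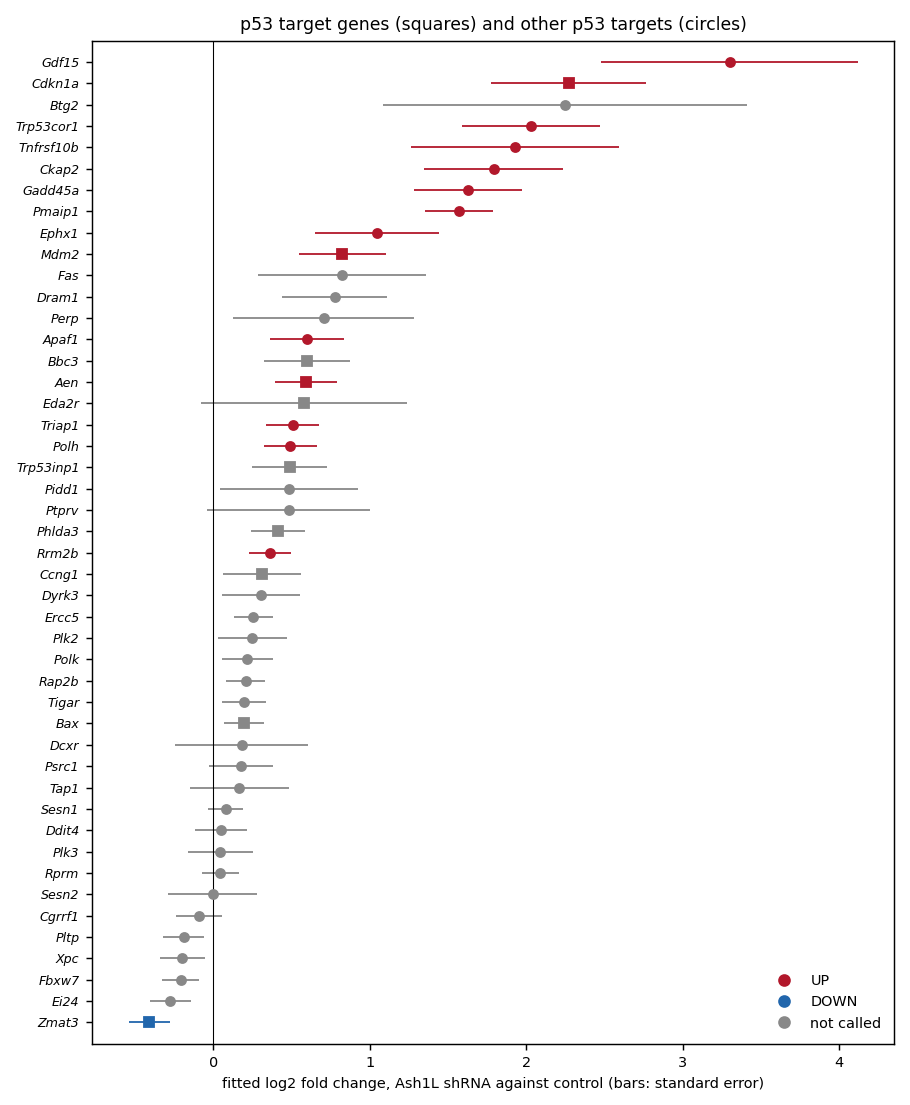
Fitted log2 fold changes, *Ash1L* shRNA against control, with standard errors as bars, for the 10 p53 target genes (squares) and the 36 other p53 targets (circles), colored by call. UP genes range from *Gdf15* at 3.30 to *Rrm2b* at 0.36, and *Zmat3* at -0.41 is the 1 gene called DOWN.

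Members of the BCL2 family, which decide whether mitochondria release death signals, were listed apart from *Bax* and *Bbc3*. Of 16 genes, 14 were tested (*Bik* and *Bcl2l10* were too low), 2 were UP and 1 was DOWN, with a median of 0.25. Over all genes tested, 8.61% were UP and 8.28% were DOWN. *Bcl2l11*, which encodes the BH3-only protein Bim and is driven by FoxO and Jun factors, was 10.6 and 8.55 CPM in control samples and 21.03 and 17.7 CPM in *Ash1L* shRNA samples, and its log2 fold change came to 1.02 (standard error 0.19), which was UP with any 1 sample left out. *Bok*, a relative of Bax, was UP at 0.55 (standard error 0.17), and *Hrk*, which encodes another BH3-only protein, was DOWN at -0.37 (standard error 0.13). *Bok* was not UP without control sample 1 (0.47) or *Ash1L* shRNA sample 2 (0.34), and *Hrk* was not DOWN without control sample 1 (-0.41), control sample 2 (-0.33) or *Ash1L* shRNA sample 2 (-0.25).

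Of 20 cell cycle genes, many of which p53 and p21 lower through the DREAM complex, 1 was UP, 0 were DOWN and the median was 0.28. The shares of all genes were 8.61% UP and 8.28% DOWN. The UP gene was *Ccne1*, which encodes cyclin E1, with a log2 fold change of 0.48 (standard error 0.19). *Ccne1* was not UP without control sample 2 (0.25) or *Ash1L* shRNA sample 1 (0.44). Calls of other genes in the list also moved with the samples kept, as they did over all genes. In this list, 19 of the 20 genes were lower in control sample 1 than in control sample 2, whereas 49.7% of all genes were higher in control sample 1. Summed levels of the list were 97.97 and 153 CPM in control samples 1 and 2, against 156 and 160 CPM in *Ash1L* shRNA samples 1 and 2. Of 6 other inhibitors of cyclin-dependent kinases, 5 were tested and 0 were UP or DOWN, with log2 fold changes from -0.58 to 0.58.

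Immediate early genes and genes that respond to glucocorticoids were listed for comparison. Immediate early genes, which neuronal activity induces, summed to 601 and 433 CPM in control samples, 311 CPM in *Ash1L* shRNA sample 1 and 3068 CPM in sample 2. All 9 of them were above both controls in sample 2, as were 41.7% of all genes. In sample 1, 0 of 9 were above both controls, against 36.6% of all genes, and 6 were below both, against 37.5%. None of the 9 was called. Whether neuronal activity had a part in the values of *Cdkn1a*, *Btg2* and the other p53 targets was not tested. Of 8 genes listed as responding to glucocorticoids, which include *Cdkn1a*, 1 was UP (*Cdkn1a*) and 1 was DOWN (*Tsc22d3*, at -0.33). The shares of all genes were 8.61% UP and 8.28% DOWN.

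All 8 microglia markers were above 0 in every sample and summed to 747 and 770 CPM in control samples, 958 CPM in *Ash1L* shRNA sample 1 and 386 CPM in sample 2, with 0 called. Markers of infiltrating leukocytes lay below both controls in each *Ash1L* shRNA sample for 9 of 9 tested, of 10 listed, against 26.8% of all genes. Of these markers 6 were DOWN, against 8.28% of all genes. The leukocyte markers summed to 58.4 and 110 CPM in control samples and 38.2 and 21.9 CPM in *Ash1L* shRNA samples, and none was at 0. Of 8 astrocyte markers, 6 were DOWN, with sums of 5425 and 5725 CPM in control samples and 4367 and 3234 CPM in *Ash1L* shRNA samples. Of 8 excitatory neuron markers, 3 were DOWN, with sums of 2547 and 3019 CPM against 2344 and 1984 CPM. Of 8 markers each, 3 interneuron and 1 oligodendrocyte markers were DOWN, 1 endothelial marker was UP, and 1 leptomeningeal marker was UP and 2 were DOWN. The shares of all genes were 8.61% UP and 8.28% DOWN. The part of these cell types in the values of the p53 target genes was not tested.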

How the data were processed

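RNA-seq counts of 4 mouse PFC samples were used, 2 control and 2 *Ash1L* shRNA, grouped by their labels. For the deposited raw counts the authors used RNA STAR (mm10) and featureCounts, with 1 row per gene symbol. The labels' protocol names TopHat2 instead. Strand and multiple-mapping settings are not given in the sources used here. Genes were filtered with filterByExpr, scaled with TMM and tested over 16232 genes with edgeR 4.0.16 (glmQLFit and glmQLFTest, both robust, R 4.3.3), with Benjamini-Hochberg adjustment. No source pairs the replicates, and whether each is a pool of mice is given differently by the methods and the series text. The p-values thus measure only spread between samples, 2 a group, with dispersion estimates moderated across genes. A fit that leaves out 1 sample has 1 sample in a group, and that sample gives no spread of its own. Total counts ran from 14251190 to 35764874, which limits low genes most in control sample 1. UP and DOWN follow the call rule of the study's methods. The members and lists were chosen with earlier results of these data known. Named are all 10 p53 target genes, *Ash1l* and *Trp53*, and at most 8 UP and 8 DOWN genes of each further list by unadjusted P, unless stated. *Trp53cor1*, *Cop1*, *Pidd1* and *Tigar* were matched through RefSeq synonyms. Alternatives were DESeq2 1.42.0, the likelihood ratio test, scaling by RLE or by library size, a looser filter (1 count in any sample) and a stricter one (10 counts in all samples), the replicate block, leaving out each sample, and a 1.5-fold limit.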

Additional observations from a re-analysis of the deposited data

How the results depend on the processing

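Over 13 alternatives for each of the 10 p53 target genes, 109 of 130 values kept direction and call, 9 lost the call, 10 gained it and 2 changed sign, *Ccng1* without control sample 2 and *Eda2r* without *Ash1L* shRNA sample 2. *Ccng1* ran from -0.015 to 0.73 and *Eda2r* from -0.83 to 1.30 over the fits that omit a sample. In those fits UP counts ran from 423 to 2368 over all genes, 0 to 6 among the 10, 5 to 15 among other p53 targets, 0 to 2 among regulators, 1 to 3 in the BCL2 family and 1 to 4 among cell cycle genes. DOWN counts ran from 306 to 2718, 0 to 1, 0 to 2, 0 to 1, 0 to 2 and 0 to 0. The median of the 10 ran from 0.19 to 0.69. At a 1.5-fold limit, 765 of the 16232 genes tested were UP and 491 were DOWN. At that limit 0 of the 10 were DOWN, and 1 regulator, 1 BCL2 family gene and 0 cell cycle genes were UP. In the BCL2 family 0 were DOWN.

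Samples share replicate numbers but no source pairs them, and the correlation of same-numbered deviations was -0.13. With the replicate block, 6.48% of all genes were UP and 1020 of the 16232 tested were DOWN. Of the 10 genes, 3 were UP and 1 was DOWN. In the other lists, 8 other p53 targets were UP (*Tnfrsf10b*, *Polh* and *Ephx1* lost the call). There, 1 regulator was UP and 0 BCL2 family genes were DOWN. With the pairing crossed, chosen after seeing the data, 6 of the 10 and 9.49% of all genes were UP. With 2 samples a group, 1 of the 16232 genes tested passed an adjusted p of 0.05 in edgeR's quasi-likelihood test. Among genes with low counts, the standard error was 0.66 for *Eda2r* and 0.82 for *Gdf15*, but 0.28 for *Bbc3*. It was 0.50 for *Cdkn1a* and 1.16 for *Btg2*, which had more counts.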
